A study of Drosophila melanogaster with 30 samples.

Results

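Genes of the insulin and target of rapamycin (TOR) pathways were followed across *Drosophila melanogaster* hemocytes, the insect blood cells, profiled by Drop-seq, which tags the transcripts of single cells in droplets. They were taken by name, *ImpL2*, *InR*, *Akt1*, *foxo*, *Tor*, *S6k* and *Thor*, and make up 7 of the 16322 genes listed in any library. Their levels are given in each of 30 libraries of 8 conditions and in cells divided by unique molecular identifiers (UMIs) of *Tep4*, a prohemocyte marker, of *Hml*, a marker of differentiating cells and plasmatocytes, and of *atilla*, a lamellocyte marker. All larvae were of the wild-type strain Oregon-R. The infested conditions came from larvae exposed at 72 h after egg laying (AEL) to the parasitoid wasp *Leptopilina boulardi*, and comprised the lymph gland (LG) at 96 h AEL (4 libraries) and circulating hemocytes at 96 and 120 h AEL (3 libraries each). The normal conditions, from larvae without wasps, comprised the LG at 72, 96 and 120 h AEL (5, 5 and 4 libraries) and circulating hemocytes at 96 and 120 h AEL (3 libraries each). Each LG library pooled the dissected primary lobes of many larvae, so that a library is the replicate and no value belongs to a single animal.

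Insulin-like peptides bind the receptor InR, which through a phosphoinositide 3-kinase (PI3K) raises the activity of the kinase Akt1. Akt1 keeps the transcription factor Foxo out of the nucleus and, through the Tsc complex and Rheb, releases the kinase Tor, whose targets S6k and Thor set the rate of protein synthesis. In the fly LG this pathway, together with amino acid sensing, is known to act on the maintenance and growth of blood progenitors. Activity in this pathway is carried largely by phosphorylation, and the values below are transcript levels only.

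In the BDGP6 annotation the members lay on 3 chromosome arms. *ImpL2* was at 3L, 4224006 to 4236147, and *S6k* at 3L, 5797549 to 5810931, both on the minus strand. *InR* was at 3R, 21570248 to 21619321, on the minus strand, *Akt1* at 3R, 16099228 to 16105670, and *foxo* at 3R, 14056945 to 14087978, both on the plus strand. *Tor* was at 2L, 13004480 to 13013197, and *Thor* at 2L, 3478434 to 3479612, both on the plus strand. *InR* overlapped 2 annotated entries on its own strand and 2 on the other, *ImpL2* overlapped 1 on its own strand and *S6k* 1 on the other. Whether any reads were split with these neighbours was not tested. All 7 members had UMIs in all 30 libraries.

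After filters the groups held between 1034 cells (normal circulation, 96 h AEL) and 10998 cells (normal LG, 120 h AEL), with 1229715 to 33310323 UMIs per library, and the infested LG files held 10179 barcodes already filtered by the authors. Of 435 pairs of libraries, 52 shared cell barcodes. The library labelled normal circulation 96 h AEL, library 3, and that labelled normal circulation 120 h AEL, library 1, shared 38 barcodes, 9.03% of the smaller. Libraries also went against their time labels. Over 2000 genes the library labelled normal circulation 96 h AEL, library 3, was closest to normal circulation 120 h AEL, library 2 (r = 0.955), against 0.897 and 0.930 with its own group. The library labelled normal circulation 120 h AEL, library 3, had r = 0.981 and 0.983 with the other normal circulation libraries of 96 h AEL, against 0.912 and 0.914 with its own group. In the normal LG, library 4 of 120 h AEL was close to both times. Its r was 0.942 to 0.959 with its own group and 0.924 to 0.947 with the libraries of 96 h AEL. Without the cells of shared barcodes each member call in normal circulation was kept, and values without both libraries 3 are given below where they change a call. As a check of the labels, the summed lamellocyte markers stood at 7532 to 9498 CPM (UMIs of a gene per 1000000 UMIs of the library) in infested circulation at 120 h AEL, at 716 to 1521 CPM in infested circulation at 96 h AEL and at 504 to 903 CPM in infested LGs, against 472 to 677 and 384 to 696 CPM in normal circulation at 96 and 120 h AEL and 208 to 374 CPM in normal LGs of 96 h AEL.

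Levels are CPM summed over the cells of a library. In such sums, fewer cells of a type and less RNA per cell cannot be told apart. Differences are log2 fold changes ± SE from edgeR's quasi-likelihood test on summed counts, fitted to all genes that passed the low-count filter, and a gene passed at a false discovery rate (FDR, Benjamini-Hochberg adjusted p) under 0.05. All 7 members passed the filter in the whole-library comparisons. Changes of a call are given mainly for libraries left out in turn, and for other processing alternatives only in part.

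**Figure D1:**
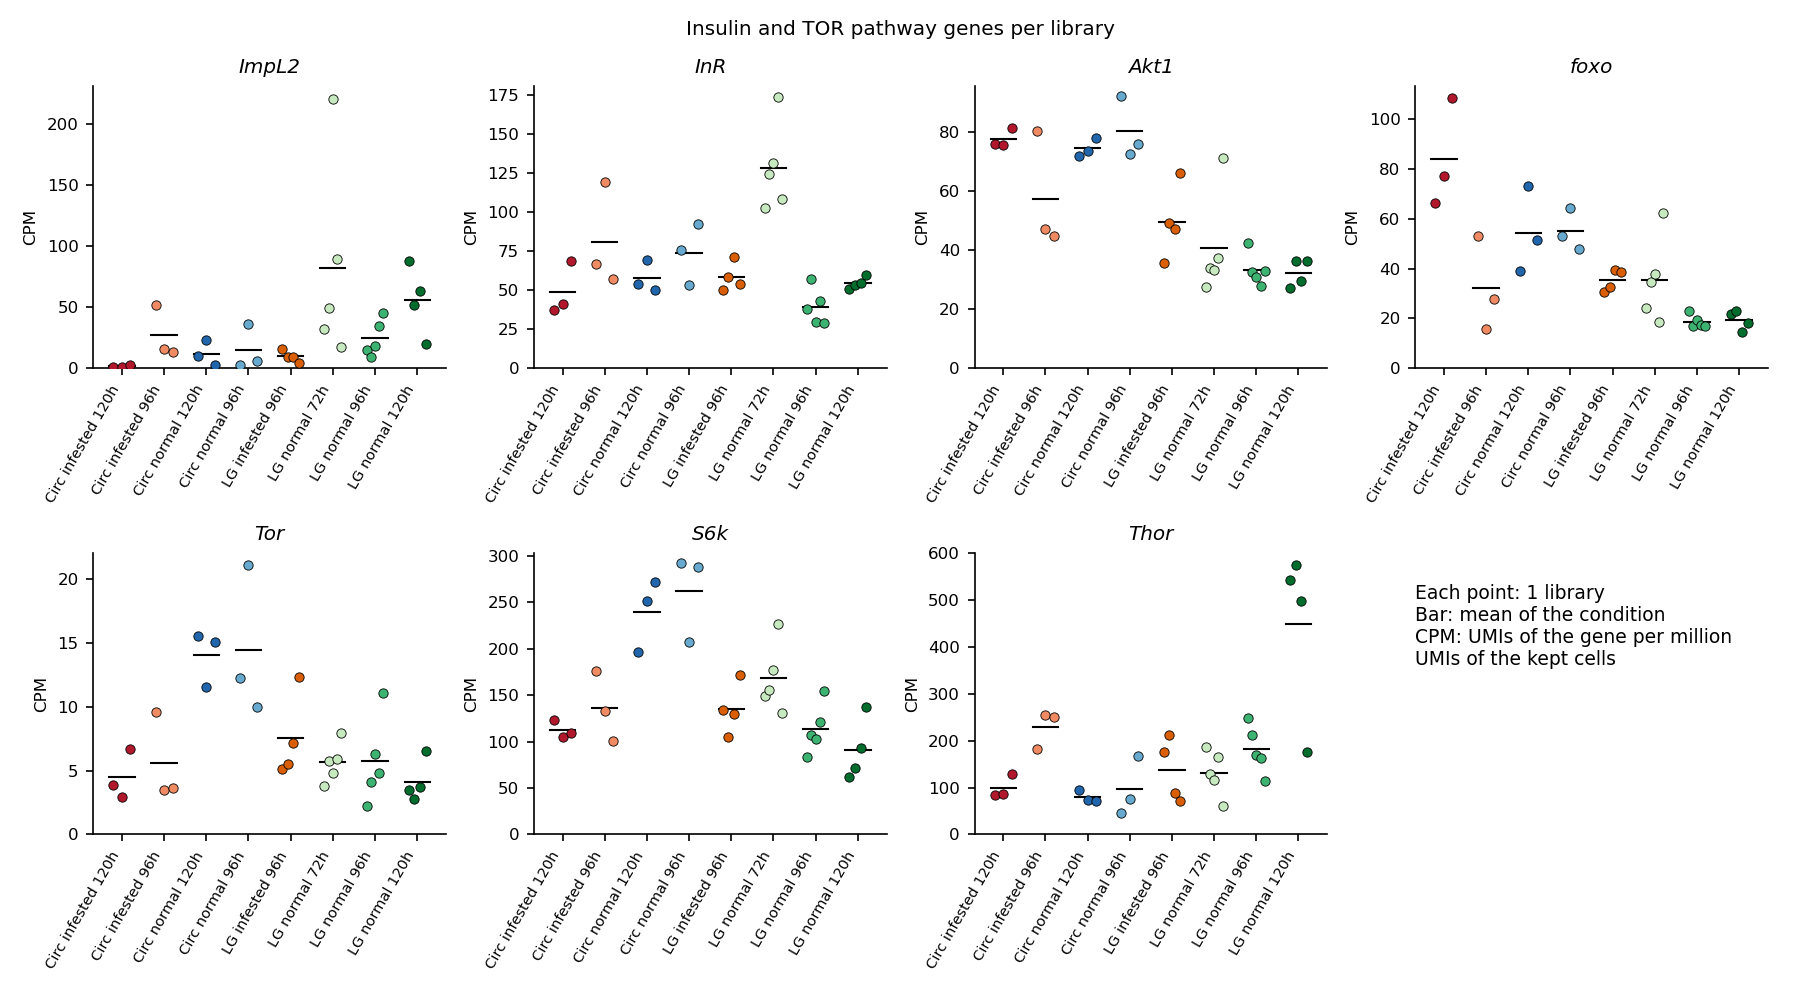
CPM (vertical axes) of the 7 members in each library (points) of the 8 conditions (horizontal axes), with group means as bars, n = 3 to 5 libraries per condition. The group mean was highest in the LG at 120 h AEL for *Thor*, in the LG at 72 h AEL for *InR* and *ImpL2*, in infested circulation at 120 h AEL for *foxo*, and in normal circulation at 96 h AEL for *Akt1*, *Tor* and *S6k*.

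The number of members that passed differed between comparisons, and is read against the share of all genes that passed. In the normal LG at 96 against 72 h AEL, 3 of 7 members passed, all lower, while 19.9% of 7740 genes passed, 9.74% higher and 10.2% lower. At 120 against 96 h AEL, 1 member passed, higher, beside 42.6% of genes, 22.1% higher and 20.4% lower, and at 120 against 72 h AEL 4 passed, 1 higher and 3 lower, beside 50.7%. In the infested against the normal LG, 1 member passed, higher, beside 17.7% of 7315 genes, 7.98% higher and 9.76% lower. In infested against normal circulation, 3 members passed at 96 h AEL, 1 higher and 2 lower, beside 35.8% of 7573 genes (18.8% higher, 17% lower), and 3 passed at 120 h AEL, all lower, beside 47% (23.6% higher, 23.4% lower). In infested circulation at 120 against 96 h AEL, 3 members passed, 1 higher and 2 lower, beside 33.9% of genes. In normal circulation against the normal LG, 4 members passed at 96 h AEL, 3 higher and 1 lower, beside 49.7% of 8451 genes (26.9% higher, 22.8% lower), and 6 passed at 120 h AEL, 4 higher and 2 lower, beside 51.8% (27.9% higher, 23.9% lower). Over these comparisons *foxo* and *Thor* passed most often.

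The cell make-up of circulation and the LG differed, and this stands beside every member difference between them. At 96 h AEL summed plasmatocyte markers (3 of 3 genes found) were 6616 to 10331 CPM in normal circulation, against 1155 to 3205 CPM in the LG, and prohemocyte markers (2 of 2) 413 to 560 CPM, against 2851 to 3336 CPM. Crystal cell markers (3 of 3) were 1988 to 12134 CPM, against 946 to 2056 CPM, fat body markers (4 of 4) 16.9 to 522 CPM, against 0 to 0.94 CPM, with all 4 at 0 in 1 LG library, and heat shock genes 2344 to 4793 CPM, against 867 to 1874 CPM. At 120 h AEL plasmatocyte markers were 5444 to 8507 CPM in circulation, against 795 to 2369 CPM in the LG, prohemocyte markers 360 to 644 CPM, against 4475 to 7210 CPM, crystal cell markers 2209 to 5288 CPM, against 440.0 to 1464 CPM, and fat body markers 139 to 152 CPM, against 0.166 to 0.672 CPM, while heat shock genes overlapped. The part of these lists in the differences was not tested over whole libraries, and levels in *Hml*-only cells, those with *Hml* but no *Tep4* UMIs, are given beside the members as ranges, with no test.

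The split of all calls depended on scaling. With library totals alone, in place of edgeR's trimmed mean of M-values (TMM), the share of calls that were higher was 69.7% against 49.0% for the LG at 96 against 72 h AEL, 39.4% against 52.0% at 120 against 96 h AEL, 73.0% against 45.0% for the infested against the normal LG, 30.5% against 52.5% and 39.6% against 50.3% for infested against normal circulation at 96 and 120 h AEL, and 81.3% against 54.1% and 83.7% against 53.9% for circulation against the LG at 96 and 120 h AEL. The median log2 fold change over all genes was 0.47 and 0.57 in the last pair, against 0.09 and 0.07 with TMM, -0.35, against 0.06, for the infestation effect in circulation minus that in the LG, and -0.19 to 0.16, against -0.01 to 0.02, in the other comparisons just named. No member that passed changed sign under that scaling.

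**Figure D2:**
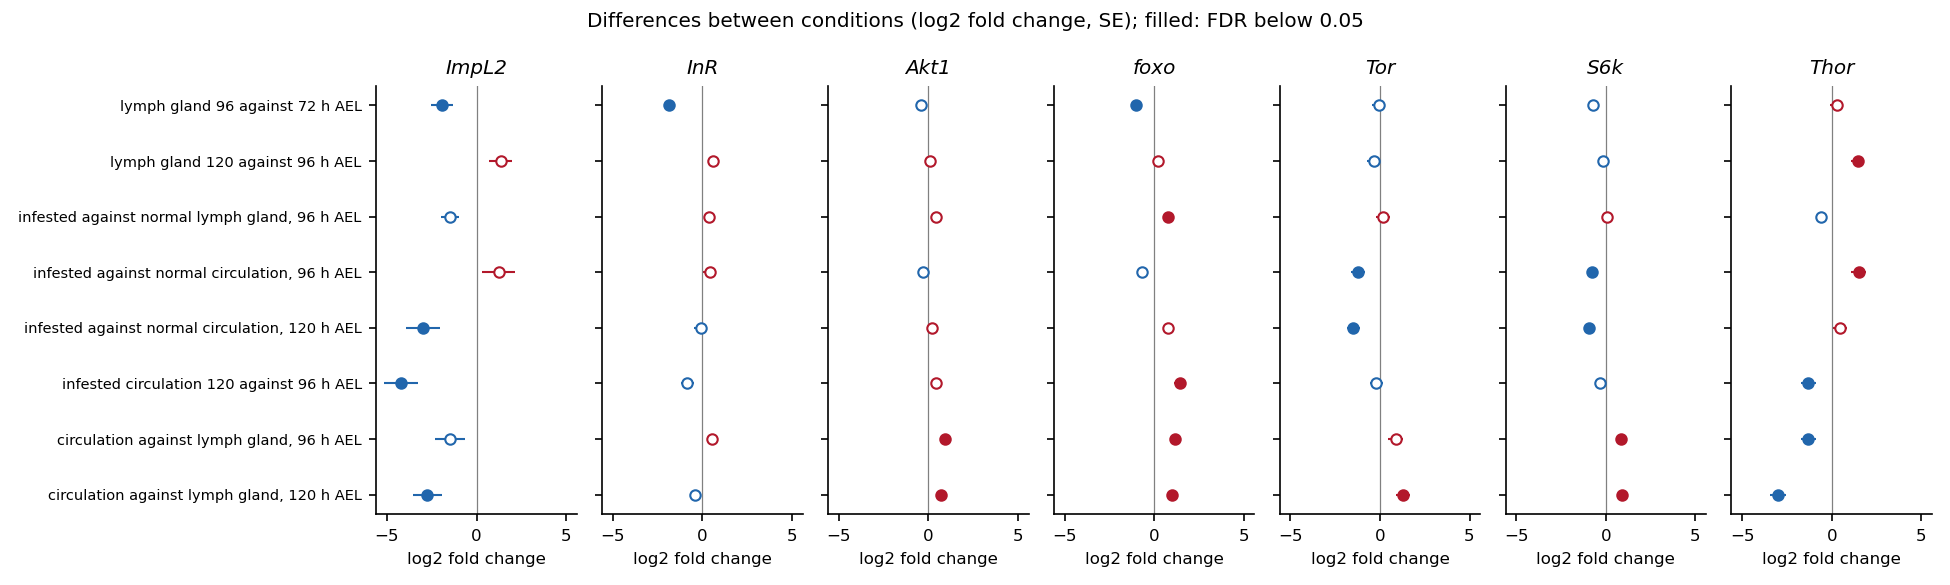
Log2 fold change (horizontal axes) of each member (panels) in 8 comparisons of whole libraries (vertical axis), with SE bars that may be hidden behind a point, filled where FDR was under 0.05 and open otherwise. *Akt1* and *foxo* were higher in normal circulation than in the normal LG at both times, and *ImpL2* had the widest bars.

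*ImpL2* encodes a secreted protein that binds insulin-like peptides and limits signalling through InR. Its level was led by few cells, and its libraries spread widely within most conditions. Mean CPM, from the highest condition down, was 81.6 ± 82.2 in the LG at 72 h AEL (SD, n = 5), 55.6 ± 28.3 in the LG at 120 h AEL (n = 4), 27.0 ± 21.8 in infested circulation at 96 h AEL (n = 3), 24.2 ± 15.2 in the LG at 96 h AEL (n = 5), 14.5 ± 18.5 and 11.6 ± 10.3 in normal circulation at 96 and 120 h AEL (n = 3 each), 9.41 ± 4.96 in the infested LG (n = 4) and 1.28 ± 0.824 in infested circulation at 120 h AEL (n = 3). Neighbours in this order overlapped, except that infested circulation at 120 h AEL lay below the infested LG.

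In the normal LG, *ImpL2* libraries 1 to 5 had 31.9, 49.1, 220.4, 89.7 and 17.3 CPM at 72 h AEL, and 14.6, 8.79, 17.7, 34.8 and 45.0 CPM at 96 h AEL, and libraries 1 to 4 had 87.7, 52.0, 63.3 and 19.6 CPM at 120 h AEL. Library 3 of 72 h AEL stood above all others, and neighbouring times overlapped. *ImpL2* fell by 1.94 ± 0.63 on the log2 scale at 96 against 72 h AEL (FDR 0.0394). That call was lost when any of libraries 3 and 4 of 72 h AEL or libraries 1 to 4 of 96 h AEL was left out (FDR 0.0537 to 0.156), and without library 3 of 72 h AEL the difference was -1.20. At 120 against 96 h AEL the difference was 1.34 ± 0.63 (FDR 0.1003), and it passed at 2.21 (FDR 0.000883) without the cell with the most *ImpL2* UMIs in each library, an alternative chosen after seeing the data. At 120 against 72 h AEL the difference was -0.60 ± 0.64 (FDR 0.457), and 0.39 without those cells.

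Single cells held much of the *ImpL2* sum. The top cell of library 3 of the LG at 72 h AEL held 431 of 546 *ImpL2* UMIs (78.9%). At 96 h AEL the top cells of libraries 4 and 5 held 253 of 502 (50.4%) and 393 of 545 (72.1%). In the 4 LG libraries of 120 h AEL no cell held over 6.78% of the *ImpL2* UMIs. Cells with at least 10 *ImpL2* UMIs numbered 31 at 72 h, 20 at 96 h and 132 at 120 h AEL in the normal LG, and 15 in the infested LG. At 120 h AEL 126 of the 132 (95.5%) carried *Tep4* UMIs, beside 83.7% of all cells.

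Some of these cells carried markers of the posterior signaling center (PSC), the niche of the LG. At least 2 UMIs of *Antp* and *kn* summed were found in 14 of the 15 cells in infested LGs, and in 21 of 31, 9 of 20 and 45 of 132 in normal LGs at 72, 96 and 120 h AEL, beside 2.12% of all cells in infested LGs and 5.19, 1.86 and 1.59% in normal LGs. Prohemocyte and lamellocyte markers were more common than PSC markers among the 132 cells of 120 h AEL, with at least 2 UMIs in 130 and 116 of them, but also in 90.8 and 70.9% of all cells, and 87 of the 132 had neither PSC nor ring gland markers.

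The cells with at least 2 UMIs of *Antp* and *kn*, called PSC marker cells here, are a threshold on counts and not the niche itself, since *kn* is known at low levels in some prohemocytes too. They were a mean of 2.18% of the cells of infested LGs and held a mean of 77.0% of their *ImpL2* UMIs (73.7 to 79.3%, n = 4). In the normal LG they were 6.23, 2.29 and 1.67% of cells at 72, 96 and 120 h AEL and held 49.9% (18.9 to 100%), 27.9% (2.99 to 49.1%) and 25.9% (17.3 to 35.9%) of the *ImpL2* UMIs. *ImpL2* CPM was higher in PSC marker cells than in the remaining cells in 18 of 18 LG libraries, with a median ratio of 17.1 over the 17 libraries where a ratio could be formed. *S6k* was higher there in 17, *foxo* in 16, *InR* in 14 and *Akt1* in 12 of the 18, with median ratios of 1.24, 1.58, 1.34 and 1.26, while *Tor* and *Thor* were higher in 7 and 5. With UMIs of both genes required, a definition chosen after seeing the data, such cells were 0.887% of cells in infested LGs and held 62.9% of the *ImpL2* UMIs (56.2 to 71.9%), and were 1.85, 0.822 and 0.658% in normal LGs at the 3 times and held 25.0, 18.1 and 21.8%, with *ImpL2* CPM again higher there in 18 of 18 libraries. Outside PSC marker cells of the first definition mean *ImpL2* was 2.27 CPM in infested LGs, against 20.0 CPM in normal LGs of 96 h AEL, where the single cells named above held 253 and 393 of the UMIs of libraries 4 and 5. Without the top remaining cell of each library it was 1.68 ± 0.888 CPM in infested LGs, against 8.19 ± 4.90 CPM in normal LGs (SD, n = 4 and 5).

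**Figure D3:**
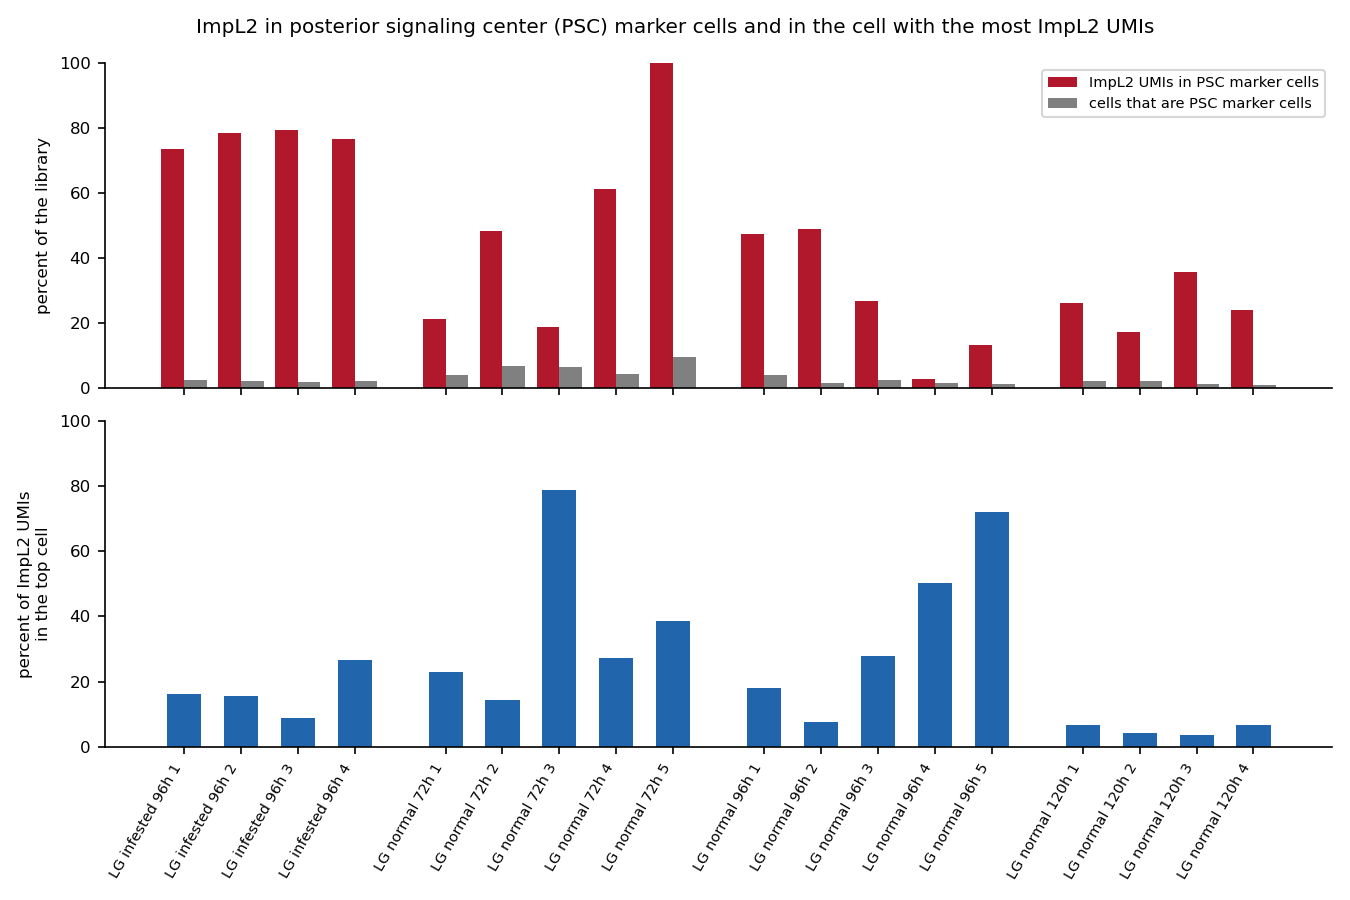
Upper panel, percent of *ImpL2* UMIs in PSC marker cells and percent of cells that are PSC marker cells, by LG library; lower panel, percent of each library's *ImpL2* UMIs in its top cell. In the 4 infested LG libraries PSC marker cells held 73.7 to 79.3% of the *ImpL2* UMIs.

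With infestation, *ImpL2* libraries 1 to 4 had 15.8, 8.74, 9.33 and 3.74 CPM in the infested LG, against the normal LG values of 96 h AEL above. The groups overlapped, and the difference was -1.48 ± 0.48 (FDR 0.0545). It passed without normal library 2 (-1.70, FDR 0.0307) or infested library 1 (-1.86, FDR 0.0299), and stood at -0.77 (FDR 0.14) without the top cell of each library. With DESeq2 the difference passed at -1.51 (FDR 0.0407). In infested circulation of 96 h AEL libraries 1 to 3 had 52.1, 15.9 and 12.9 CPM, against 2.04, 35.8 and 5.64 CPM in normal circulation, where a single cell held 43 of the 44 UMIs of library 2. The difference was 1.24 ± 0.91 (FDR 0.309), and it passed at 2.96 (FDR 0.0337) without that library and at 3.84 (FDR 0.00762) without the top *ImpL2* cell of each library. Summed PSC markers stood at 40.3 to 66.3 CPM in infested circulation of 96 h AEL (4 of 4 genes found), against 1.46 to 8.25 CPM in normal circulation of that time (3 of 4 found). The sums are thus over unlike sets, and their part in the *ImpL2* level was not tested. Of the cells with at least 10 *ImpL2* UMIs in infested library 1, 0 of 5 carried at least 2 UMIs of *Antp* and *kn* summed. In each of infested libraries 2 and 3, 4 of 4 did. These cells held 52.2, 22.4 and 28.7% of the *ImpL2* UMIs of libraries 1 to 3.

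*ImpL2* at 120 h AEL had 0.964, 0.657 and 2.21 CPM in infested circulation, against 9.65, 22.8 and 2.42 CPM in normal circulation. All infested libraries lay below the normal ones, the third of each group close together. *ImpL2* fell by 2.98 ± 0.94 (FDR 0.0230), a call lost without normal library 2 (-2.05, FDR 0.133), infested library 1 (-2.79, FDR 0.0734) or infested library 2 (-2.68, FDR 0.0842). Against infested circulation of 96 h AEL the infested libraries of 120 h AEL lay lower without overlap, and *ImpL2* fell by 4.23 ± 0.95 (FDR 0.00576). Summed PSC markers were 0.855 to 2.72 CPM at 120 h AEL, against 40.3 to 66.3 CPM at 96 h AEL, beside that fall, and their part in it was not tested.

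Normal circulation had *ImpL2* below the LG at 120 h AEL, where it fell by 2.75 ± 0.80 (FDR 0.0101), with overlap of normal circulation library 2 and LG library 4. At 96 h AEL the difference was -1.47 ± 0.85 (FDR 0.162), and it passed without normal circulation library 2 (-3.13, FDR 0.019) or without the top cell of each library (-3.22, FDR 0.00479). The infestation effect on *ImpL2* in circulation minus that in the LG at 96 h AEL was 2.81 ± 1.03 (FDR 0.0545), which passed without LG normal library 2 (2.97, FDR 0.0475), LG infested library 1 (3.17, FDR 0.0406) or circulation normal library 2 (4.46, FDR 0.00728), and without the top cells (4.63, FDR 0.00112). The effect in circulation at 120 minus that at 96 h AEL was -4.22 ± 1.31 (FDR 0.0559), which passed without normal library 2 of 96 h AEL (-5.91, FDR 0.0154) or normal library 3 of 120 h AEL (-4.65, FDR 0.0388), without the top cells (-6.12, FDR 0.00878) and with DESeq2 (-4.10, FDR 0.0134).

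*InR*, the insulin receptor, was highest in the youngest LGs. Mean CPM was 128 ± 28.0 in the LG at 72 h AEL, 80.8 ± 33.3 and 73.5 ± 19.7 in infested and normal circulation at 96 h AEL, 58.3 ± 9.19 in the infested LG, 57.6 ± 10.4 in normal circulation at 120 h AEL, 54.4 ± 3.70 in the LG at 120 h AEL, 48.9 ± 17.1 in infested circulation at 120 h AEL and 39.1 ± 11.7 in the LG at 96 h AEL (SD, n as above). Each neighbouring pair in this order overlapped. *InR* libraries had 102, 124, 131, 173 and 108 CPM in the LG at 72 h AEL, 37.5, 57.0, 29.2, 43.1 and 28.7 CPM at 96 h AEL, and 50.6, 53.4, 54.3 and 59.4 CPM at 120 h AEL. Every LG library of 72 h AEL lay above every later one. *InR* fell by 1.87 ± 0.24 at 96 against 72 h AEL (FDR 6.85e-05) and by 1.26 ± 0.25 at 120 against 72 h AEL (FDR 0.000612). At 120 against 96 h AEL the difference was 0.61 ± 0.24 (FDR 0.0556), which passed without library 4 (FDR 0.0258) or 5 (FDR 0.0469) of 72 h AEL, which share the fit, or library 2 of 96 h AEL (0.83, FDR 0.00806). It also passed with DESeq2 (0.63, FDR 0.031) and with RLE size factors, another scaling (0.62, FDR 0.0477). The same held with no filter on low counts (0.70, FDR 0.0237) and without the 5% of cells with the most UMIs (0.60, FDR 0.0496).

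No *InR* difference with infestation passed in whole libraries. The infested LG libraries had 50.2, 58.5, 71.1 and 53.5 *InR* CPM, against the normal values of 96 h AEL above, with overlap, and the difference was 0.39 (FDR 0.224), or 0.61 (FDR 0.0382) without normal library 2. In circulation *InR* had 66.3, 119 and 57.2 CPM in infested libraries at 96 h AEL, against 75.6, 52.9 and 92.0 CPM in normal ones (0.40, FDR 0.419). The values at 120 h AEL were 37.4, 40.8 and 68.6 CPM in infested libraries, against 53.7, 69.4 and 49.8 CPM in normal ones (-0.09, FDR 0.859). Both pairs of groups overlapped. Infested circulation at 120 against 96 h AEL differed by -0.85 ± 0.37 (FDR 0.0935), and by -1.09 (FDR 0.0425) without infested library 1 of 96 h AEL. Normal circulation against the LG differed by 0.53 ± 0.24 at 96 h AEL (FDR 0.0771), which passed without LG library 2 (0.76, FDR 0.00808) or circulation library 2 (0.70, FDR 0.0305), and by -0.43 ± 0.25 at 120 h AEL (FDR 0.160).

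*Akt1*, the kinase below the receptor, separated normal circulation from the normal LG at 96 and 120 h AEL. Mean CPM was 80.2 ± 10.6 in normal circulation at 96 h AEL, 77.5 ± 3.23 in infested and 74.4 ± 3.15 in normal circulation at 120 h AEL, 57.3 ± 19.9 in infested circulation at 96 h AEL, 49.4 ± 12.4 in the infested LG, and 40.5 ± 17.5, 33.2 ± 5.45 and 32.2 ± 4.69 in the LG at 72, 96 and 120 h AEL (SD, n as above). Each neighbouring pair overlapped. *Akt1* had 92.2, 72.4 and 76.0 CPM in normal circulation at 96 h AEL, against 42.2, 32.3, 30.7, 27.7 and 32.9 CPM in the LG. *Akt1* at 120 h AEL had 71.8, 73.4 and 77.9 CPM in normal circulation, against 27.1, 36.2, 29.4 and 36.2 CPM in the LG. At both times every circulation library was above every LG library, and *Akt1* rose by 0.91 ± 0.15 (FDR 0.000211) at 96 h and by 0.70 ± 0.15 (FDR 0.00187) at 120 h AEL. The marker lists above moved over the same pairs, and in *Hml*-only cells *Akt1* was 67.5 to 105 CPM in circulation, against 29.0 to 59.9 CPM in the LG at 96 h AEL, and 69.7 to 79.6 CPM, against 20.7 to 39.8 CPM at 120 h AEL.

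*Akt1* passed in no comparison with infestation in whole libraries. Infested LGs had 35.7, 49.0, 47.2 and 65.9 *Akt1* CPM, overlapping the normal LG by library 1 alone, and the difference was 0.40 ± 0.15 (FDR 0.0917), or 0.52 (FDR 0.026) without that library. In circulation *Akt1* had 80.3, 47.0 and 44.7 CPM in infested libraries of 96 h AEL, against the normal values above (-0.32 ± 0.16, FDR 0.136). Infested libraries of 120 h AEL had 75.7, 75.5 and 81.2 CPM, overlapping the normal ones (0.21, FDR 0.287). Infested circulation at 120 against 96 h AEL differed by 0.42 (FDR 0.0564), which passed without normal library 1 or 3 or infested library 1 of 96 h AEL (0.45 to 0.54, FDR 0.0255 to 0.046). With DESeq2 that difference passed at 0.43 (FDR 0.018). The effect in circulation minus that in the LG was -0.69 ± 0.25 (FDR 0.0551), which passed without LG normal library 1, LG infested library 1, circulation normal library 2 or circulation infested library 1 (-0.82 to -0.75, FDR 0.0224 to 0.0453). It also passed with DESeq2 (-0.75, FDR 0.0258), RLE size factors (-0.74, FDR 0.04035) and library totals alone (-1.07, FDR 0.0214), among other alternatives. In the LG of 72 h AEL *Akt1* had 27.3, 33.9, 33.1, 37.1 and 71.2 CPM, library 5 alone being above all LG libraries of 96 and 120 h AEL.

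*foxo*, the transcription factor that insulin signalling holds back, was highest in infested circulation at 120 h AEL. Mean CPM was 84.0 ± 22.1 there, 55.0 ± 8.41 and 54.5 ± 17.4 in normal circulation at 96 and 120 h AEL, 35.5 ± 16.9 in the LG at 72 h AEL, 35.2 ± 4.34 in the infested LG, 32.1 ± 19.2 in infested circulation at 96 h AEL, and 19.3 ± 3.77 and 18.6 ± 2.60 in the LG at 120 and 96 h AEL (SD, n as above). Infested circulation at 120 h AEL lay above its neighbour without overlap, and the other neighbours overlapped.

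*foxo* rose in infested LGs, where it had 30.4, 32.6, 39.2 and 38.5 CPM, against 22.9, 16.8, 19.3, 17.4 and 16.7 CPM in normal LGs of 96 h AEL. The groups did not overlap, and the difference was 0.76 ± 0.11 (FDR 0.00113). In circulation at 96 h AEL *foxo* had 53.1, 15.5 and 27.7 CPM in infested libraries, against 53.1, 64.2 and 47.8 CPM in normal ones, with infested libraries 2 and 3 below all normal ones and library 1 level with normal library 1. That difference was -0.66 ± 0.32 (FDR 0.131), and -0.94 (FDR 0.0341) without infested library 1. The infestation effect on *foxo* in circulation minus that in the LG was -1.38 ± 0.30 (FDR 0.00478).

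*foxo* at 120 h AEL had 66.3, 77.0 and 109 CPM in infested circulation, against 38.9, 73.2 and 51.3 CPM in normal circulation. Normal library 2 lay above infested library 1, and the difference was 0.78 ± 0.31 (FDR 0.0570). It passed without normal library 2 (1.07, FDR 0.0285) and without infested library 1 of 120 h AEL or infested library 1 or 2 of 96 h AEL, which share the fit. *foxo* rose in infested circulation at 120 against 96 h AEL by 1.44 ± 0.31 (FDR 0.00504), with every library of 120 h above every library of 96 h AEL. The effect at 120 minus that at 96 h AEL was 1.44 ± 0.45 (FDR 0.0563), which passed without normal library 2 of 120 h (1.75, FDR 0.0381) or infested library 1 of 96 h AEL (1.75, FDR 0.0183). Summed lamellocyte markers, 7532 to 9498 CPM in infested circulation at 120 h and 716 to 1521 CPM at 96 h AEL, moved with *foxo* over this pair, and their part in it was not tested in whole libraries.

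In LGs without wasps *foxo* had 24.0, 34.6, 37.9, 18.5 and 62.4 CPM at 72 h AEL, the values above at 96 h AEL, and 21.5, 23.0, 14.6 and 18.1 CPM at 120 h AEL. Library 4 of 72 h AEL fell within the range of the later times and its other 4 libraries above it. *foxo* fell by 1.00 ± 0.20 at 96 against 72 h AEL (FDR 0.00255) and by 0.79 ± 0.21 at 120 against 72 h AEL (FDR 0.00466). Normal circulation lay above the LG without overlap at both times, and *foxo* rose by 1.18 ± 0.19 (FDR 0.000158) at 96 h and by 0.99 ± 0.19 (FDR 0.000681) at 120 h AEL, beside the shift in plasmatocyte, prohemocyte, crystal cell and fat body markers given above. In *Hml*-only cells *foxo* was 50.0 to 60.8 CPM in circulation, against 18.3 to 34.0 CPM in the LG at 96 h AEL, and 41.1 to 74.9 CPM, against 12.9 to 23.8 CPM at 120 h AEL.

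*Tor*, the kinase of the TOR complexes, was counted thinly, with means of 4.13 to 14.5 CPM. Mean CPM was 14.5 ± 5.90 and 14.1 ± 2.20 in normal circulation at 96 and 120 h AEL, 7.53 ± 3.33 in the infested LG, 5.72 ± 3.33 and 5.65 ± 1.53 in the LG at 96 and 72 h AEL, 5.59 ± 3.49 and 4.50 ± 1.94 in infested circulation at 96 and 120 h AEL, and 4.13 ± 1.68 in the LG at 120 h AEL (SD, n as above), with overlap of each neighbouring pair. In circulation at 96 h AEL *Tor* had 9.62, 3.49 and 3.64 CPM in infested libraries, against 12.3, 21.1 and 9.98 CPM in normal ones. *Tor* at 120 h AEL had 3.86, 2.96 and 6.68 CPM in infested libraries, against 15.5, 11.5 and 15.1 CPM in normal ones. The groups did not overlap at either time. *Tor* fell with infestation by 1.25 ± 0.39 at 96 h (FDR 0.0276) and by 1.48 ± 0.36 at 120 h AEL (FDR 0.00656). The first call was lost without normal library 1 or 2 or infested library 2 or 3 of 96 h AEL (-1.32 to -0.94, FDR 0.0608 to 0.107). It was also lost with no filter on low counts (-1.09, FDR 0.0603).

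Across tissues *Tor* rose in normal circulation against the LG at 120 h AEL by 1.28 ± 0.40 (FDR 0.0158), where the LG libraries had 3.45, 2.76, 3.75 and 6.57 CPM and lay below all circulation libraries, a call lost without circulation library 1 (1.17, FDR 0.054). The LG libraries of 96 h AEL had 2.25, 4.15, 6.27, 4.85 and 11.1 CPM, library 5 reaching into the circulation range. That *Tor* difference was 0.87 ± 0.41 (FDR 0.092), and 1.25 (FDR 0.0111) without LG library 5. The infestation effect in circulation minus that in the LG was -1.40 ± 0.63 (FDR 0.103), and -1.76 (FDR 0.0305) without LG library 5. Within the LG *Tor* had 3.82, 5.73, 4.84, 5.88 and 7.96 CPM at 72 h AEL and 5.11, 5.50, 7.14 and 12.4 CPM with infestation, overlapping the other LG groups, and no LG comparison passed.

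*S6k*, the TOR target kinase that acts on ribosomal protein S6, was highest in normal circulation. Mean CPM was 263 ± 47.8 and 239.9 ± 38.8 in normal circulation at 96 and 120 h AEL, 168 ± 36.9 in the LG at 72 h AEL, 137 ± 38.0 in infested circulation at 96 h AEL, 135 ± 27.3 in the infested LG, 114 ± 26.5 in the LG at 96 h AEL, 113 ± 9.48 in infested circulation at 120 h AEL and 91.0 ± 33.7 in the LG at 120 h AEL (SD, n as above), with overlap of each neighbouring pair. In circulation at 96 h AEL *S6k* had 177, 132 and 101 CPM in infested libraries, against 292, 207 and 288 CPM in normal ones. *S6k* at 120 h AEL had 123, 105 and 109.7 CPM in infested libraries, against 197, 252 and 272 CPM in normal ones. Every infested library lay below every normal one at both times. *S6k* fell with infestation by 0.75 ± 0.21 at 96 h (FDR 0.0156) and by 0.94 ± 0.20 at 120 h AEL (FDR 0.00341). The call of 96 h AEL was lost without normal library 1 (-0.63, FDR 0.0654) or infested library 3 (-0.62, FDR 0.0689), and without both normal circulation libraries 3 (-0.66, FDR 0.0566). It was also lost with no filter on low counts (-0.57, FDR 0.0572) and in 1 fit of all 30 libraries (-0.68, FDR 0.054).

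The cell make-up of these circulation libraries differed too. Summed plasmatocyte markers were 734 to 1574 CPM in infested circulation at 96 h AEL and 489 to 966 CPM at 120 h AEL, against 6616 to 10331 and 5444 to 8507 CPM in normal circulation at those times. Summed crystal cell markers were 1.99 to 667 and 214 to 516 CPM in infested circulation, against 1988 to 12134 and 2209 to 5288 CPM in normal circulation. In infested circulation at 96 h AEL summed prohemocyte markers were 2060 to 2791 CPM, against 413 to 560 CPM in normal circulation. Normal LGs of that time had 2851 to 3336 CPM. At 120 h AEL infested and normal circulation overlapped, at 303 to 480 against 360 to 644 CPM. The part of these lists in the falls of *Tor* and *S6k*, and in the *Thor* rise at 96 h AEL given below, was not tested over whole libraries. Values within *Hml*-only cells are given below.

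In the normal LG *S6k* had 149, 155, 177, 227 and 131 CPM at 72 h AEL, 83.3, 108, 103, 122 and 155 CPM at 96 h AEL, and 61.6, 71.9, 92.6 and 138 CPM at 120 h AEL, neighbouring times overlapping. *S6k* fell by 0.92 ± 0.27 at 120 against 72 h AEL (FDR 0.0112). At 96 against 72 h AEL the difference was -0.74 ± 0.26 (FDR 0.0535), which passed without library 5 of 72 h, library 5 of 96 h or library 1 or 4 of 120 h AEL (-0.87 to -0.74, FDR 0.0232 to 0.037). It also passed with DESeq2 (-0.76, FDR 0.0174) and RLE size factors (-0.76, FDR 0.0431), among other alternatives. Infested LGs had 134, 105, 129.9 and 172 *S6k* CPM, overlapping the normal libraries (0.07, FDR 0.819). Normal circulation lay above the LG without overlap at both times, and *S6k* rose by 0.83 ± 0.25 at 96 h (FDR 0.0129) and by 0.89 ± 0.26 at 120 h AEL (FDR 0.0112), again beside the marker shift between these tissues. In *Hml*-only cells *S6k* was 197 to 292 CPM in circulation, against 98.8 to 145 CPM in the LG at 96 h AEL, and 184 to 276 CPM, against 66.6 to 133 CPM at 120 h AEL. The call of 96 h AEL was lost without circulation library 1 (0.68, FDR 0.0709) or library 3 (0.75, FDR 0.0506), and without both libraries 3 (0.76, FDR 0.0501). The *S6k* infestation effect in circulation minus that in the LG was -0.78 ± 0.30 (FDR 0.0632), which passed without LG normal library 5, LG infested library 2 or circulation normal library 2 (-0.93 to -0.90, FDR 0.032 to 0.0394). It also passed with DESeq2 (-0.84, FDR 0.0291), RLE size factors (-0.84, FDR 0.0499) and library totals alone (-1.18, FDR 0.0138).

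*Thor* encodes 4E-BP, a repressor of translation initiation that Tor inactivates and Foxo transcribes. It was highest in the mature LG, with a mean of 448 ± 184 CPM at 120 h AEL, followed by 229 ± 39.9 in infested circulation at 96 h AEL, 182 ± 51.2 in the LG at 96 h AEL, 137 ± 68.3 in the infested LG, 131 ± 48.6 in the LG at 72 h AEL, 100.0 ± 25.2 in infested circulation at 120 h AEL, and 96.1 ± 63.7 and 80.1 ± 12.2 in normal circulation at 96 and 120 h AEL (SD, n as above), with overlap of each neighbouring pair.

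Across LG development *Thor* had 186, 129, 116, 165 and 59.7 CPM at 72 h AEL, 249, 213, 169, 163 and 115 CPM at 96 h AEL, and 544, 575, 498 and 176 CPM at 120 h AEL. Libraries 1 to 3 of 120 h AEL stood far above every other library, and library 4 lay within the range of 96 h AEL. *Thor* rose by 1.45 ± 0.36 at 120 against 96 h AEL (FDR 0.00473) and by 1.72 ± 0.37 at 120 against 72 h AEL (FDR 0.00115). Summed heat shock genes moved with it, at 723 to 1456 CPM at 72 h, 867 to 1874 CPM at 96 h, and 4336, 20114, 3603 and 1568 CPM in libraries 1 to 4 of 120 h AEL, library 4 again the lowest, and their part in the *Thor* level was not tested. At 72 h AEL a single cell with ring gland markers held 46.0% of the *Thor* UMIs of library 2.

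With infestation *Thor* had 176, 212, 87.6 and 71.3 CPM in the LG, overlapping the normal LG of 96 h AEL, and the difference was -0.57 ± 0.32 (FDR 0.238). In circulation at 96 h AEL it had 183, 255 and 249.7 CPM in infested libraries, against 45.2, 75.6 and 168 CPM in normal ones, all infested libraries being higher. *Thor* rose by 1.52 ± 0.42 (FDR 0.0162), and by 2.27 (FDR 0.0027) without both normal libraries 3, while the call was lost without normal library 1 (1.20, FDR 0.0541) or infested library 2 (1.34, FDR 0.051) or 3 (1.43, FDR 0.0542). The effect in circulation minus that in the LG was 2.14 ± 0.61 (FDR 0.0180).

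*Thor* at 120 h AEL had 84.9, 86.0 and 129 CPM in infested circulation, against 94.2, 74.0 and 72.2 CPM in normal circulation, with overlap (0.47, FDR 0.364). Against infested circulation of 96 h AEL those libraries lay lower without overlap, and *Thor* fell by 1.30 ± 0.41 (FDR 0.0293), a call lost without infested library 2 or 3 of 96 h or infested library 1 or 2 of 120 h AEL (-1.22 to -1.09, FDR 0.0921 to 0.104). The *Thor* effect at 120 minus that at 96 h AEL was -1.05 ± 0.58 (FDR 0.248), which passed without normal library 3 of 96 h AEL (-1.75, FDR 0.0404). It also passed without both normal circulation libraries 3 (-1.83, FDR 0.0482). *Thor* fell in normal circulation against the LG by 1.31 ± 0.42 at 96 h (FDR 0.0182) and by 3.00 ± 0.46 at 120 h AEL (FDR 0.000138). Normal circulation library 3 of 96 h AEL lay within the LG range, and the call was lost without circulation library 1 (-0.999, FDR 0.0805) or 2 (-1.18, FDR 0.0601) and with library totals alone (-0.92, FDR 0.0745), whereas at 120 h AEL the groups did not overlap. The marker lists moved with *Thor* here too, and in *Hml*-only cells *Thor* was 33.1 to 124 CPM in circulation, against 146 to 327 CPM in the LG at 96 h AEL, and 55.2 to 92.7 CPM, against 189.7 to 466 CPM at 120 h AEL.

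The infestation effect was also compared between times and tissues over all genes. Between 120 and 96 h AEL in circulation 0 of 7 members passed with edgeR, beside 12.4% of genes, while 3 members (*ImpL2*, *Akt1* and *foxo*) had an unadjusted p under 0.05 and 2 (*ImpL2* and *foxo*) passed with DESeq2. Between circulation and LG at 96 h AEL 2 of 7 passed, *Thor* higher and *foxo* lower, beside 27.7% of 8027 genes, of which 59.2% were higher with TMM and 22.9% with library totals alone.

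Cells were then divided by marker UMIs. *Tep4*-only cells had at least 1 *Tep4* UMI and no *Hml* UMI, *Hml*-only cells the reverse, and the marker genes were left out of the tests of their own classes. Because a cell with few UMIs can miss a marker it expresses, these classes are thresholds on counts and not cell types. In the normal LG at 72, 96 and 120 h AEL there were 550, 1264 and 2446 *Tep4*-only cells and 107, 1574 and 1395 *Hml*-only cells. The median *Tep4*-only cell held 3576 to 17077 UMIs per library, against 2692 to 5448 UMIs for the median *Hml*-only cell.

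Between *Tep4*-only and *Hml*-only cells of the normal LG, with libraries as blocks, 2 of 6 members tested passed, both higher, beside 24.8% of 6331 genes. *ImpL2* had 99.3, 195, 200.1, 325 and 110.3 CPM in *Tep4*-only cells at 72 h AEL, against 0, 0, 0 and 7.22 CPM in *Hml*-only cells of the 4 libraries with enough of them. At 120 h AEL it had 199, 141, 189 and 118 CPM in *Tep4*-only cells, against 18.2, 13.1, 11.1 and 5.95 CPM in *Hml*-only cells. The classes were far apart at these times. At 96 h AEL *ImpL2* had 66.8, 47.4, 56.8, 30.8 and 89.7 CPM in *Tep4*-only cells, against 22.7, 2.87, 0, 166 and 394 CPM in *Hml*-only cells, where libraries 4 and 5 were high through single cells with 253 of 258 and 393 of 394 UMIs. *ImpL2* was higher in *Tep4*-only cells by 2.76 ± 0.68 (FDR 0.00487), and by 4.42 (FDR 2.1e-11) without the top *ImpL2* cell of each library.

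*InR* was also higher in *Tep4*-only cells, by 0.90 ± 0.15 (FDR 0.000198). At 72 h AEL it had 137, 162, 129.9, 168 and 87.6 CPM in *Tep4*-only cells, against 45.9, 16.5, 112 and 79.4 CPM in *Hml*-only cells. *InR* at 96 h AEL had 72.6, 80.8, 42.8, 59.2 and 37.1 CPM in *Tep4*-only cells, against 30.8, 41.6, 25.9, 36.6 and 32.0 CPM in *Hml*-only cells. *InR* at 120 h AEL had 59.3, 64.7, 63.3 and 64.4 CPM in *Tep4*-only cells, against 49.3, 42.4, 48.4 and 53.5 CPM in *Hml*-only cells. Compared across libraries, the ranges of the classes overlapped at 72 and 96 h AEL and were apart at 120 h AEL. The overlap at 72 h AEL came through the value of 87.6 CPM, whose library had too few *Hml*-only cells for a sum. Within every library with sums of both classes, *InR* was higher in *Tep4*-only cells.

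Cells with UMIs of both markers were the most common class and had less *ImpL2* than *Tep4*-only cells, with means of 1.78 ± 1.54, 3.17 ± 1.73 and 27.8 ± 14.9 CPM at 72, 96 and 120 h AEL (SD, n = 5, 5 and 4), against 186 ± 90.8, 58.3 ± 22.0 and 162 ± 38.5 CPM in *Tep4*-only cells. Cells with UMIs of neither marker, 42, 169 and 398 in number, had *ImpL2* means of 1350.4 ± 849, 779 ± 1062 and 118 ± 42.9 CPM over the 3, 3 and 4 libraries with enough of them. These levels are given as a description, with no test.

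**Figure D4:**
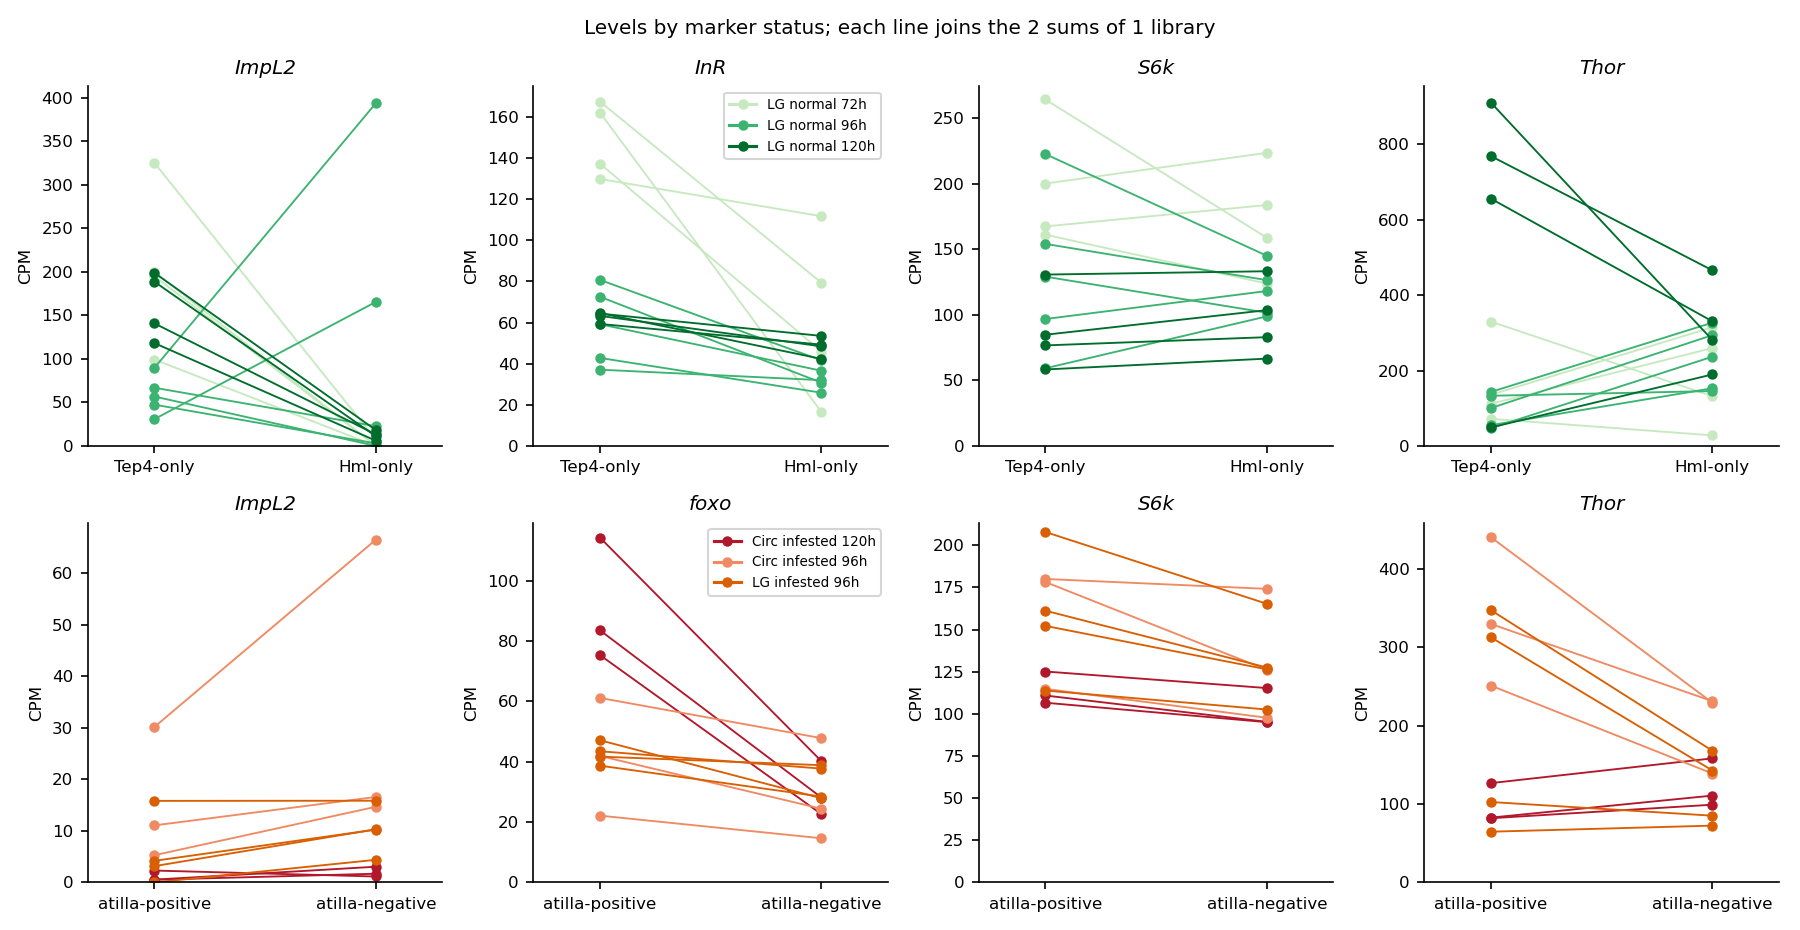
CPM per library (lines join the classes of a library). Upper row, *ImpL2*, *InR*, *S6k* and *Thor* in *Tep4*-only and *Hml*-only cells of the normal LG. Lower row, *ImpL2*, *foxo*, *S6k* and *Thor* in *atilla*-positive and *atilla*-negative cells of infested LG and circulation libraries. *InR* was higher in *Tep4*-only cells, and *foxo* was higher in *atilla*-positive cells of infested circulation at 120 h AEL, at 75.3 to 114 CPM, against 22.6 to 40.2 CPM in *atilla*-negative cells.

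The fall of *InR* and *foxo* in the young LG was seen within *Tep4*-only cells. At 96 against 72 h AEL 3 of 6 members passed there, all lower, beside 6.38% of 5345 genes. *ImpL2* fell by 1.93 ± 0.35 (FDR 0.00375), *InR* by 1.40 ± 0.24 (FDR 0.00276) and *foxo* by 1.17 ± 0.26 (FDR 0.0129). *foxo* had 28.6, 16.7, 17.7, 15.7 and 16.8 CPM in *Tep4*-only cells at 96 h AEL, against 24.2, 49.3, 36.9, 27.5 and 62.2 CPM at 72 h AEL, and library 1 of 96 h AEL alone reached into the earlier range. In *Hml*-only cells over the same times 0 of 6 passed with edgeR, beside 3.06% of 5234 genes, with 3 (*ImpL2*, *InR* and *S6k*) at an unadjusted p under 0.05 and 0 with DESeq2. The difference between the classes was not tested.

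At 120 against 96 h AEL 2 of 6 members passed in *Tep4*-only cells, both higher, beside 50.4% of genes. *ImpL2* rose by 1.68 ± 0.36 (FDR 0.000962), with the values above not overlapping. *Thor* rose by 2.83 ± 0.58 (FDR 0.00072), with 769, 911, 656 and 49.0 CPM at 120 h AEL, against 143, 101, 133, 47.1 and 55.0 CPM at 96 h AEL, library 4 of 120 h AEL again standing with the earlier ones. In *Hml*-only cells 2 of 6 passed, 1 higher and 1 lower, beside 23.2% of genes. *ImpL2* fell there by 3.23 ± 0.89 (FDR 0.0112), a call lost without library 5 of 96 h AEL (-2.05, FDR 0.0608) and resting on the single cells named above. DESeq2 gave -3.18 (FDR 0.103) for it. *InR* rose by 0.57 ± 0.20 (FDR 0.0461), a call lost without library 1 of 72 h, libraries 1, 3, 4 or 5 of 96 h or libraries 1, 3 or 4 of 120 h AEL (0.51 to 0.59, FDR 0.0565 to 0.11). *Thor* in *Hml*-only cells had 466, 281, 331 and 189.7 CPM at 120 h AEL, against 327, 294, 146, 237 and 153 CPM at 96 h AEL, with overlap and no call.

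The rise of *foxo* in infested LGs was likewise present in *Tep4*-only cells, where 1 of 7 members passed, higher, beside 9.82% of 5559 genes. *foxo* had 36.1, 45.4, 47.6 and 41.2 CPM in *Tep4*-only cells of infested LGs, against 28.6, 16.7, 17.7, 15.7 and 16.8 CPM in those of normal LGs. The groups did not overlap, and the difference was 1.01 ± 0.18 (FDR 0.00313). In *Hml*-only cells *foxo* had 38.9, 34.1, 34.6 and 34.5 CPM in infested LGs, against 34.0, 18.3, 19.4, 21.8 and 22.0 CPM in normal LGs, where normal library 1 reached almost to the infested ones. There 0 of 5 members passed with edgeR beside 17.1% of 4939 genes, with 3 (*InR*, *foxo* and *Thor*) at an unadjusted p under 0.05 and 0 with DESeq2.

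Among *Hml*-only cells of circulation the falls of *Tor* and *S6k* were seen too. At 120 h AEL, with 1827 infested and 905 normal cells, 3 of 7 members passed, all lower, beside 28.2% of 6489 genes. *Tor* had 3.48, 3.26 and 5.56 CPM in infested libraries, against 16.9, 13.4 and 15.2 CPM in normal ones, without overlap, and fell by 1.92 ± 0.30 (FDR 0.000561). *S6k* had 140.2, 115 and 125 CPM in infested libraries, against 184, 271 and 276 CPM in normal ones, without overlap, and fell by 1.04 ± 0.24 (FDR 0.00563). *ImpL2* fell by 2.95 ± 0.61 (FDR 0.00299), with 0.871, 0.653 and 1.04 CPM in infested libraries, against 5.80, 10.0 and 4.85 CPM in normal ones, a call lost without the 5% of cells with the most UMIs (-2.06, FDR 0.0988).

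At 96 h AEL 4 of 7 members passed in *Hml*-only cells of circulation, 1 higher and 3 lower, beside 21.5% of genes, where infested library 1 held only 10 such cells. *Akt1* fell by 0.77 ± 0.23 (FDR 0.0296), *Tor* by 1.73 ± 0.45 (FDR 0.0169) and *S6k* by 0.84 ± 0.26 (FDR 0.0344), and *Thor* rose by 1.86 ± 0.47 (FDR 0.0147). *Tor* had 18.7, 2.14 and 3.64 CPM in infested libraries, against 13.9, 12.5 and 12.3 CPM in normal ones, the high value being that of the 10 cells. *Thor* had 93.6, 354 and 253 CPM in infested libraries, against 33.1, 77.5 and 124 CPM in normal ones, with overlap through the same library. All 4 calls were lost without normal library 1 or infested library 2 or 3 of 96 h AEL, *Akt1* at -0.85 to -0.55 (FDR 0.0668 to 0.165), *Tor* at -1.86 to -1.50 (FDR 0.0682 to 0.12), *S6k* at -0.92 to -0.60 (FDR 0.0775 to 0.22) and *Thor* at 1.49 to 1.88 (FDR 0.0568 to 0.0688), with *Akt1* and *S6k* also lost without normal library 3 and *S6k* without infested library 1 or 2 of 120 h AEL.

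*atilla* status divided the infested libraries. In infested LGs 1558 cells had *atilla* UMIs, with medians of 3907 to 9203 UMIs per library, and 8621 had none, with medians of 3776 to 7570. Between them 4 of 7 members passed, 3 higher and 1 lower, beside 33.1% of 6847 genes. *S6k* had 161, 114, 152 and 208 CPM in *atilla*-positive cells, against 128, 103, 126 and 165 CPM in *atilla*-negative cells. It was higher in *atilla*-positive cells of each of the 4 libraries, by 0.24 ± 0.05 (FDR 0.00334). *Thor* had 313, 347, 103 and 64.7 CPM in *atilla*-positive cells, against 143, 168, 85.2 and 72.5 CPM in *atilla*-negative cells. It was higher by 0.71 ± 0.14 (FDR 0.0015), with library 4 the other way, and DESeq2 gave 0.57 (FDR 0.181).

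*foxo* and *ImpL2* also passed in infested LGs. *foxo* had 38.7, 47.1, 41.7 and 43.5 CPM in *atilla*-positive cells, against 28.4, 27.9, 38.8 and 37.7 CPM in *atilla*-negative cells, higher in each library, by 0.37 ± 0.11 (FDR 0.0158). That *foxo* call was lost without library 1 (0.36, FDR 0.0581) or 2 (0.22, FDR 0.118) and with DESeq2 (0.37, FDR 0.0647). *ImpL2* had 15.8, 4.19, 3.16 and 0 CPM in *atilla*-positive cells, against 15.8, 10.2, 10.3 and 4.38 CPM in *atilla*-negative cells, with library 1 level between the classes. It was lower by 0.85 ± 0.28 (FDR 0.0339), a call lost without library 2 (-0.67, FDR 0.0842), 3 (-0.60, FDR 0.2) or 4 (-0.74, FDR 0.0582) and at 2 UMIs as the least for a positive cell (-0.49, FDR 0.18).

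In infested circulation *atilla*-positive cells made up 81.2 ± 6.67% of cells at 120 h AEL, against 20.9 ± 13.6% at 96 h AEL (SD, n = 3 each), and the 2 times were tested together with libraries as blocks. Again 4 of 7 members passed, 3 higher and 1 lower, beside 43.2% of 7351 genes. *foxo* had 61.1, 22.1 and 41.9 CPM in *atilla*-positive cells at 96 h AEL, against 47.8, 14.6 and 24.4 CPM in *atilla*-negative cells. *foxo* at 120 h AEL had 75.3, 83.5 and 114 CPM in *atilla*-positive cells, against 22.6, 28.1 and 40.2 CPM in *atilla*-negative cells. *foxo* was higher in *atilla*-positive cells of all 6 libraries, by 1.27 ± 0.25 (FDR 0.00514), and at 120 h AEL the classes were apart. In *atilla*-negative cells of 120 h AEL *foxo* lay within the range of normal circulation or below it.

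*Akt1* had 82.0, 52.8 and 54.8 CPM in *atilla*-positive cells at 96 h AEL, against 79.1, 46.2 and 42.4 CPM in *atilla*-negative cells. At 120 h AEL it had 79.3, 78.3 and 82.5 CPM in *atilla*-positive cells, against 57.9, 54.6 and 64.2 CPM in *atilla*-negative cells. It was higher in *atilla*-positive cells of all 6 libraries, by 0.49 ± 0.12 (FDR 0.0131). *S6k* was higher by 0.37 ± 0.08 (FDR 0.00763), with 180.0, 178, 115, 125, 107 and 111 CPM in *atilla*-positive cells of the 3 libraries of 96 h and then the 3 of 120 h AEL, against 174, 126, 97.7, 115, 95.1 and 95.2 CPM in *atilla*-negative cells, again higher in all 6. *ImpL2* was lower by 0.96 ± 0.30 (FDR 0.0312), a call lost without any of the libraries of 96 h AEL or without library 1 or 2 of 120 h AEL (-1.03 to -0.81, FDR 0.056 to 0.101) and without the top *ImpL2* cell of each library (-1.20, FDR 0.0616). *Thor*, which did not pass, had 251, 441 and 330 CPM in *atilla*-positive cells at 96 h AEL, against 139, 229 and 231 CPM in *atilla*-negative cells, and at 120 h AEL 81.9, 82.7 and 127 CPM in *atilla*-positive cells, against 99.2, 111 and 158 CPM in *atilla*-negative cells, so that its 3 libraries of 96 h AEL were higher in *atilla*-positive cells and its 3 of 120 h AEL lower.

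The wider pathway was followed through a list of 54 further genes, of which 42 to 44 were tested per comparison. In the LG at 96 against 72 h AEL 11 of 44 passed (25.0%), all lower, beside 19.9% of all genes (10.2% lower), and the list's median log2 fold change was -0.22, against 0.02 over all genes. They included *chrb*, an inhibitor of TOR through the Tsc complex, at 26.5 ± 3.72 CPM against 77.2 ± 24.0 CPM (-1.66 ± 0.19, FDR 2.05e-05), the amino acid transporter gene *mnd*, at 127 ± 16.1 CPM against 309 ± 35.6 CPM (-1.45 ± 0.13, FDR 2.32e-06), and *Lip4*, a lipase gene known as a Foxo target, at 18.5 ± 3.34 CPM against 60.5 ± 33.5 CPM (-1.85 ± 0.37, FDR 0.00282), SD with n = 5 each. At 120 against 96 h AEL 7 rose and 10 fell of 44 (38.6%, beside 42.6% of all genes, median -0.01, against 0.00), with *Lip4* at 97.1 ± 32.6 CPM against 18.5 ± 3.34 CPM, the lipase gene *bmm*, also a Foxo target, at 4.08 ± 0.837 CPM against 23.2 ± 8.09 CPM, and the ligand gene *Ilp6* at 73.9 ± 20.5 CPM against 33.6 ± 4.45 CPM (log2 2.54, -2.35 and 1.28). The genes known as Foxo targets did not move together between these times. At 120 against 72 h AEL 6 rose and 15 fell (47.7%, beside 50.7% of all genes).

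In infested against normal LGs 5 list genes rose and 3 fell of 42 (19.0%, beside 17.7% of all genes, median 0.03, against 0.01). *Ilp6* fell by 1.20 ± 0.25 (FDR 0.00919), with 16.3 ± 7.02 CPM in infested LGs, against 33.6 ± 4.45 CPM in normal LGs. The authors report an *Ilp6* driver line active in crystal cells, among other LG cells. Summed crystal cell markers were 9.37 to 81.1 CPM in infested LGs, against 946 to 2056 CPM in normal LGs. Their part in the *Ilp6* fall was not tested. *scyl*, an inhibitor of TOR related to *chrb*, rose by 0.98 ± 0.24 (FDR 0.0174), with 239.9 ± 89.4 CPM in infested LGs, against 108 ± 23.1 CPM in normal LGs. *Lip4* rose by 0.77 ± 0.16 (FDR 0.00979).

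In infested against normal circulation 6 list genes rose and 5 fell of 44 at 96 h AEL (25.0%, beside 35.8% of all genes, median -0.24, against 0.02), and 9 rose and 12 fell at 120 h AEL (47.7%, beside 47%, median -0.13, against -0.01). *Lip4* rose at both times, with 99.7 ± 22.2 CPM in infested circulation, against 1.40 ± 1.22 CPM in normal circulation at 96 h AEL (6.13 ± 0.63, FDR 0.000125), and 14.9 ± 3.44 CPM, against 1.47 ± 1.39 CPM at 120 h AEL (3.41 ± 0.59, FDR 0.000866). Prohemocyte markers were higher in infested circulation at 96 h AEL too, as given above, and their part in the *Lip4* rise was not tested. The PI3K adaptor gene *Pi3K21B* at 96 h AEL had 33.8 ± 16.0 CPM in infested circulation, against 92.7 ± 2.85 CPM in normal circulation (-1.32 ± 0.20, FDR 0.000943), and *CG13624* (REPTOR), a transcription factor that TOR holds back, had 49.7 ± 13.6 CPM, against 131 ± 29.8 CPM (-1.22 ± 0.21, FDR 0.00169). At 120 h AEL *dm* (Myc), a driver of cell growth, had 73.3 ± 15.2 CPM in infested circulation, against 541 ± 94.3 CPM in normal circulation (-2.74 ± 0.31, FDR 6.86e-05), and the TOR inhibitor *Sesn* 14.3 ± 2.55 CPM, against 48.2 ± 10.9 CPM (-1.61 ± 0.24, FDR 0.000401). In infested circulation at 120 against 96 h AEL 4 list genes rose and 11 fell (34.1%, beside 33.9% of all genes, median -0.09).

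In normal circulation against the LG 12 list genes rose and 10 fell of 44 at 96 h AEL (50.0%, beside 49.7% of all genes, median 0.14, against 0.09), and 15 rose and 14 fell at 120 h AEL (65.9%, beside 51.8%, median 0.18, against 0.07). *scyl* had 396 ± 62.1 CPM in circulation, against 108 ± 23.1 CPM in the LG at 96 h AEL (1.49 ± 0.26, FDR 0.000352), and 421 ± 57.3 CPM, against 69.3 ± 29.2 CPM at 120 h AEL (2.10 ± 0.28, FDR 4.39e-05). *Lip4* fell by 3.80 ± 0.54 (FDR 6.94e-05) and by 6.47 ± 0.50 (FDR 1.09e-06) at those times. The infestation effect differed between 120 and 96 h AEL in circulation for 4 list genes (9.09%, beside 12.4% of all genes), and between circulation and LG for 14 of 42 (33.3%, beside 27.7%).

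Across the 30 libraries the genes whose log2 CPM was most like that of each member, among 5100 genes with a mean of at least 10 CPM, are given as a description; the libraries share conditions. For *Akt1* Pearson's r was 0.95 with *Rbcn-3B*, 0.94 with *nocte* and 0.94 with *EndoA*. For *S6k* it was 0.93 with each of *Rbp2*, *hts* and *Imp*. For *foxo* it was 0.90 with *Khc-73*, 0.89 with *lap* and 0.89 with *GckIII*. For *Thor* it was 0.86 with *dos*, 0.85 with *GstO3* and 0.85 with *Vps28*. For *InR* it was 0.83 with *SNF4Agamma*, which encodes a subunit of the energy sensor AMPK, 0.75 with *Su(z)2* and 0.73 with *chinmo*. For *ImpL2* it was 0.78 with *Non1*, 0.78 with *grass* and 0.76 with *RpL8*. *Tor* lay under that floor.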

How the data were processed

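Hemocytes of the LG and of circulation were profiled by Drop-seq in 30 libraries of 8 conditions. The authors deposited a table of UMI counts per gene and cell barcode for each library, and the submitters' processing notes name the BDGP6 genome, Picard and STAR 2.5.3a. Cells with 400 to 5000 genes, UMIs up to 2 SD above the library mean and at most 10% (LG) or 20% (circulation) mitochondrial UMIs were kept, and the infested LG files, already filtered by the authors, were used whole. Those files listed 14999 genes, against 15540 in the normal LG files, and held cells with as few as 337 genes. The part of this unlike filtering in the infested against normal LG results was not tested. No doublet caller was run, and the UMI ceiling stood in for it. Counts were summed per library, or per library and marker status where at least 10 cells were held, and tested with edgeR 4.0.16 in R 4.3.3 (TMM, filterByExpr, quasi-likelihood test, Benjamini-Hochberg adjustment over all genes tested, FDR under 0.05), after the same code had been tested on simulated data. Sums used Python 3.11.15 with pandas 2.3.3, numpy 2.4.6 and scipy 1.17.1. The SE of a log2 fold change was derived from its F value. DESeq2 1.42.0 and other cell filters, scalings and sets of libraries were alternatives. Libraries are the replicates, so p-values measure only the spread between libraries, which may be technical. Depth ran from 1229715 to 33310323 UMIs per library, and the members had at least 7 UMIs in each, the fewest being those of *ImpL2*. Positions and overlaps came from a BDGP6 annotation. The 7 members were named in every comparison. Of 54 other pathway genes, up to 3 per comparison were named, those past the threshold with the largest fold change and at least 10 CPM in the higher group. For each member, the 3 genes with the highest r over libraries were named. Members, lists and tests were chosen with earlier results of these data known.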

Additional observations from a re-analysis of the deposited data

Results flagged for a closer look

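*Akt1* in library 5 of the normal LG at 72 h AEL had 71.2 CPM, from 161 UMIs, against 27.3 to 37.1 CPM in the other 4 libraries. It stood farther from its nearest neighbour than Dixon's criterion allows, which chance alone would give in about 1 of 20 groups, and 28 groups were examined.

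The effect of infestation differed between circulation and the LG at 96 h AEL for *foxo*, by -1.38 ± 0.30 on the log2 scale (FDR 0.00478, edgeR's quasi-likelihood test of the interaction), and for *Thor*, by 2.14 ± 0.61 (FDR 0.0180). *foxo* was higher in all 4 infested LG libraries than in every normal one, and *Thor* was higher in all 3 infested circulation libraries than in every normal one.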

How the results depend on the processing

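Of 55 member differences that passed, in whole libraries or by marker status, 34 passed under every alternative run, 21 failed under at least 1 and 0 changed sign. Of 47 whole-library differences that did not pass, 22 passed somewhere and 13 changed sign. Differences by marker status that did not pass were not followed in this way. With library totals alone *Tor* stood at 0.081 in the LG at 96 against 72 h AEL, *Akt1* at -0.037 at 120 against 96 h AEL, and *InR* at 0.083 in circulation against the LG at 120 h AEL and at -0.43 for the infestation effect in circulation minus that in the LG. That last *InR* value was -0.0036 with DESeq2, -0.0055 with RLE size factors and -0.035 without the 5% of cells with the most UMIs. *InR* in infested against normal circulation at 120 h AEL was 0.14 with no filter on low counts, *Tor* for the effect at 120 minus 96 h AEL was 0.054 without both normal circulation libraries 3, and *ImpL2* in the LG at 120 against 72 h AEL was 0.39 without the top cell of each library. For each of these the cause was not tested.

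Same-numbered libraries were not treated as pairs in the main tests. Of 56 such pairs, 16 had r over 0.1 for their deviations (-0.60 to 0.47). Differently numbered libraries were not compared in this way, so the check cannot exclude pairing. With the replicate block the infested against normal LG gave 760 genes, against 1298, and the effect in circulation minus LG gave 935, against 2223. *InR* was -0.11 for that effect and *Tor* 0.0058 in the LG at 120 against 96 h AEL. *S6k* in the LG at 96 against 72 h AEL (-0.97, FDR 0.002), *ImpL2* at 120 against 96 h AEL (1.82, FDR 0.0377), *Thor* in infested LGs (-0.83, FDR 0.036) and *Tor* in circulation against the LG at 96 h AEL (1.36, FDR 0.0171) passed with the block, and *ImpL2* in infested circulation at 120 h AEL (-2.56, FDR 0.0649) and *Thor* for the effect in circulation minus LG (2.14, FDR 0.0537) did not.

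Gene counts moved by over 1.5 times in 1 fit of all 30 libraries for infested LGs (676) and for the effect at 120 minus 96 h AEL (1651, against 938), in the latter also with no filter (591) and without both libraries 3 (618), and with no filter in *Hml*-only LG cells at 96 against 72 h AEL (293, against 160). With no filter the share of calls that were higher was 66.8% in the LG at 120 against 96 h AEL, 62.8% and 62.7% in infested against normal circulation at 96 and 120 h AEL, and 70.7% for the effect at 120 minus 96 h AEL, against 57.8%.

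With each library left out in turn, the numbers of genes ranged from 676 to 1493 for infested LGs, 1578 to 3093 for infested circulation at 96 h AEL, 1536 to 2677 for infested circulation at 120 against 96 h AEL, 381 to 1214 for the effect at 120 minus 96 h AEL, 2099 to 3033 for *atilla* status in circulation, 798 to 1359 in *Hml*-only LG cells at 120 against 96 h AEL, 193 to 498 and 324 to 580 in *Tep4*-only LG cells at 96 against 72 h AEL and with infestation, 532 to 853 in *Hml*-only LG cells with infestation, and 421 to 1747 and 1117 to 2108 in *Hml*-only circulation cells at 96 and 120 h AEL. *Tor* ranged from -0.44 to 0.10 in the LG at 96 against 72 h AEL, -0.13 to 0.53 in infested LGs, -0.61 to 0.12 in infested circulation at 120 against 96 h AEL and -0.64 to 0.091 for the effect at 120 minus 96 h AEL. *InR* ranged from -0.15 to 0.68 and -0.41 to 0.10 in infested against normal circulation at 96 and 120 h AEL, -0.81 to 0.088 for the effect at 120 minus 96 h AEL and -0.49 to 0.31 for that in circulation minus LG. *S6k* ranged from -0.049 to 0.19 in infested LGs, and *ImpL2* from -0.89 to 0.14 in the LG at 120 against 72 h AEL.

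*ImpL2* at under 3 CPM in infested circulation at 120 h AEL and *Tor* throughout rest on few UMIs, and small differences there were not detectable at this depth. Normal circulation held the fewest cells. Shares of cells with a UMI of a member are not reported, since no cell type known to lack these genes was at hand as a background. Library totals alone, the libraries without shared barcodes, levels outside marker cells, cells with both PSC markers and the sums without the top *ImpL2* cell were chosen after seeing the data.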
